A study of Mus musculus with 2 samples.

Results

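The growth-arrest-specific genes are transcripts that are abundant in serum-starved fibroblasts and fall once serum returns the cells to the cycle. Their products act at the cell surface, at the cytoskeleton and as RNA, and no single pathway holds them. The 8 genes described here are Gas1, Gas2, Gas5, Gas6, Gas7, Pmp22 (first isolated as Gas3), Pdgfra and Sdpr (the serum deprivation response gene, now Cavin2). They were taken by gene symbol, with earlier results of these data known, out of 28233 genes with a symbol on the array. All non-control probes with these symbols were kept, which gave 14 probes of 60 bases. Gas1 and Gas5 had 3 probes each, Gas7 and Pmp22 had 2 each, and the other 4 genes had 1 each.

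The cells were 1 line of immortalized mouse embryonic fibroblasts (MEF) of mixed C57BL/6 x B6:129 Ola background, genotype Rosa26ERT2 Cre: THOC5 (flox/flox). Both groups carried the floxed Thoc5 alleles and the Cre, which is driven from the broadly active Rosa26 locus and switched on by tamoxifen. Control cells had no tamoxifen and are labelled wildtype, and THOC5-depleted cells, or depleted cells for short, had 2 days of tamoxifen. Each group was measured on 1 dual-color array, with RNA of unstimulated cells in Cy3 and RNA of cells given fetal calf serum (FCS) for 1 h in Cy5. The paper's culture methods describe serum starvation before stimulation, so unstimulated cells here are serum-starved cells. They also give tamoxifen followed by growth medium, while the labels, which are followed here, give 2 days of tamoxifen. With 1 array per condition there was no replicate check, so every difference between conditions is a description without a test. Loss of THOC5, tamoxifen itself, the culture and the place on the slide cannot be told apart. Serum-treated RNA was in Cy5 on both arrays, with no dye swap. In every serum ratio, serum and dye therefore cannot be told apart.

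Each array held 43020 non-control spots, of which 62.1% to 64.4% were well above background in a channel, and 0 spots were saturated. Thoc5, the targeted gene, had a scaled signal 7.10-fold lower in unstimulated and 5.39-fold lower in serum-treated depleted cells. The immediate early gene Fos was higher after serum by 52.2-fold in control and 93.4-fold in depleted cells, and Ier2 by 5.56-fold and 6.22-fold. All 10 fibroblast markers examined were well above background in all 4 channels. Their summed signal was 487200 in unstimulated control cells and 401140 in unstimulated depleted cells, before scaling between the arrays. Single markers differed more, as Col3a1 went from 45649 to 17481 and Fbn1 from 1859 to 855 in the same comparison, and Col3a1 was at 28734 in serum-treated control cells. Among Schwann and neural markers, relevant because Pmp22 is best known as a myelin protein, S100b was not well above background in any channel. Sox10 ranged from 77.7 to 108 over the 4 channels, Tubb3 from 3534 to 5548 and Nes from 4657 to 8556. Other lists were detected in part. In all 4 channels, 3 of 6 epithelial markers, 4 of 6 endothelial, 2 of 6 macrophage and blood, 3 of 6 muscle and 2 of 5 adipocyte markers were well above background. Their summed signals ran from 212 to 282 (epithelial), from 943 to 1160 (endothelial, led by Kdr), from 4214 to 5775 (muscle, led by Acta1) and from 360 to 412 (adipocyte). Cdh1, Tek, Tie1, Lyz2, Myog, Myh11, Adipoq, Plin1 and Lep were not well above background in any channel. The macrophage and blood list had a summed signal of 6739 to 9189, led by Itgam. The part of other cell types, or of the fibroblast markers' own differences, in the values below was not tested. In RNA of whole cultures, fewer cells that express a gene and less RNA per cell cannot be told apart.

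The results turn on probes that read the same gene differently, among them the 3 probes each of Gas5 and Gas1. Gas5 is the host of a series of small nucleolar RNAs held in its introns, and its spliced RNA codes for no known protein. The array designers placed its probes on the plus strand of chromosome 1 (mm9), at chr1:162966369-162966428, chr1:162967350-162967409 and chr1:162968608-162968667. The second begins 981 bases after the first and the third 1258 bases after the second. Capitals mark ATTAAA, a variant polyadenylation signal, which the last probe alone contains.
Gas5 first probe: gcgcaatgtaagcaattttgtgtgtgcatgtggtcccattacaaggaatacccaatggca
Gas5 second probe: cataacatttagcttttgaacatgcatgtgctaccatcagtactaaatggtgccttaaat
Gas5 last probe: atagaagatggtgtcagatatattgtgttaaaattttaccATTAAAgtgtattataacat

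Gas1 was also read by 3 probes, on the minus strand of chromosome 13 (mm9). The brightest lies at chr13:60276399-60276458, the most GC-rich at chr13:60277268-60277327 and the dimmest at chr13:60278243-60278302. The first 30 bases of each are shown because the probes differ in base content, with runs of 4 or more G or C in capitals.
Gas1 brightest probe: aaagttaccatggtgttgaacaatgcatgt
Gas1 GC-rich probe: GGCCttGCGCGCCCGGGCGGCGGCGCtgct
Gas1 dimmest probe: atggatgaggaCGCCCatgccagaagtgcg
Over their full 60 bases, the share of G and C was 38.3% in the brightest, 85% in the GC-rich and 60% in the dimmest probe. Whether a member's probe lies in an exon, an intron or a UTR was not determined here. Of the 14 probes, 12 were well above background in all 4 channels. The exceptions were the dimmest Gas1 probe and the second Gas7 probe.

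The level in the 4 samples was read first. The signals were scaled between the arrays by quantile normalization of each probe's log2 signal averaged over both channels, and the brightest probe stood for its gene. On that scale, unstimulated control cells had the highest of the 4 signals for 6 genes, namely Gas1, Gas2, Gas7, Pdgfra, Pmp22 and Sdpr. This was the case for 30.3% of all genes. Gas5 and Gas6 were highest in depleted cells. For Gas1, the other 3 samples lay within 1.15-fold of one another, for Gas7 within 1.13-fold, for Sdpr within 1.16-fold and for Pdgfra within 1.31-fold. That spread was 1.08-fold for Gas2 and 1.42-fold for Pmp22, and its median over all genes was 1.26-fold. For Gas2 and Pmp22 the highest sample stood only 0.11 and 0.08 on the log2 scale above the next, and for Pmp22 serum-treated control cells stood apart, 0.46 below the others.

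**Figure D1:**
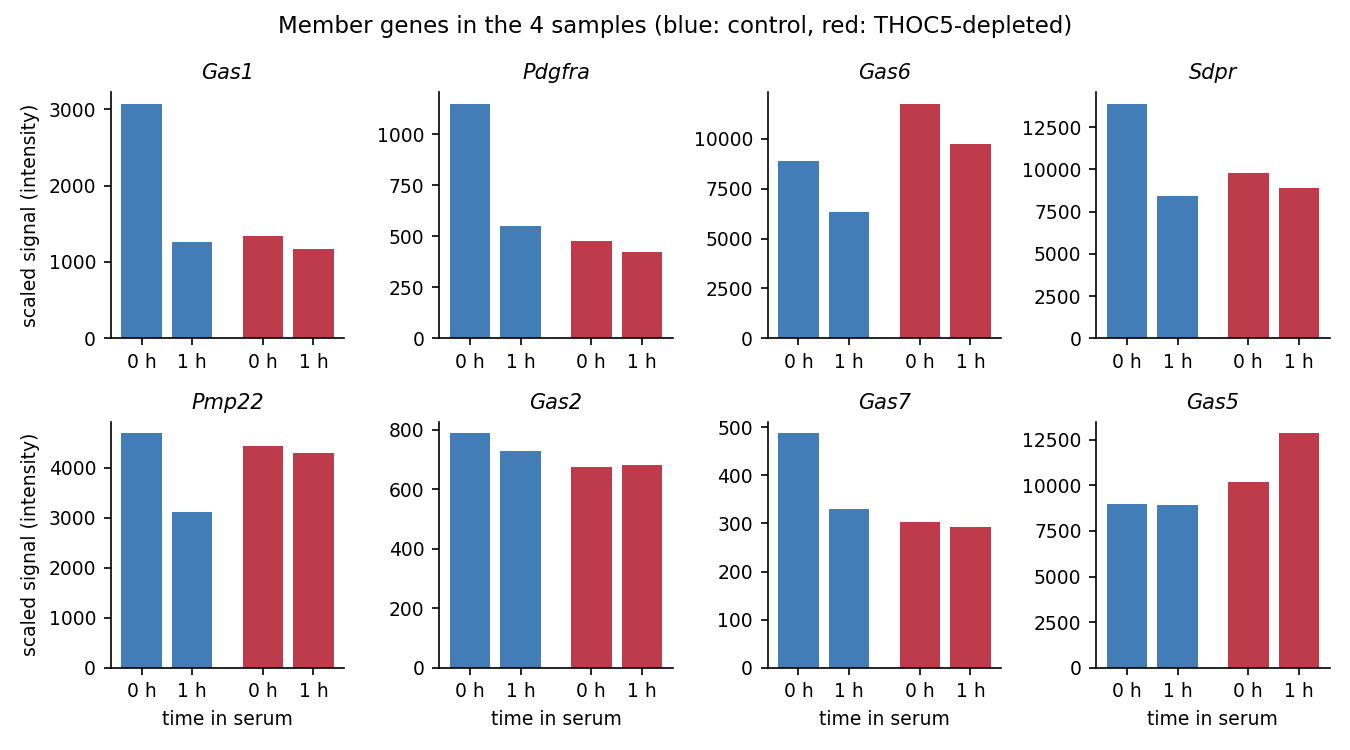
Scaled signal (intensity, vertical axis from 0) of the 8 genes before and after 1 h of serum, in control cells (blue) and depleted cells (red); each bar is the brightest probe on 1 array, with no replicates and no error bar. For 6 genes the first blue bar, unstimulated control cells, is the tallest, and for Gas1 and Pdgfra it stands at least 2.09-fold above each of the other bars.

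The first comparison asked how serum changed these genes within control cells. All 8 genes had a negative serum log2 ratio (Cy5 over Cy3), as did 53.9% of all genes. Gas1, Pdgfra, Sdpr and Pmp22 were lower by 1.5-fold or more, which is 4 of 8 genes beside 6.92% of the 18770 genes compared. None of the 8 was higher by 1.5-fold, beside 6.90% of all genes. The median log2 ratio was -0.57 over the 8 genes and -0.03 over all genes. Pmp22 lay just inside the limit of 1.5-fold, with 1.504, and Gas7 just outside it, with 1.47. With the median over its probes Pmp22 did not pass.

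The same comparison within depleted cells gave values near 0. No member was lower by 1.5-fold, beside 2.08% of 18531 genes, and none was higher, beside 3.84%. The median log2 ratio of the 8 genes was -0.09, beside -0.01 over all genes. Of the 8 genes, 6 had a ratio below 0, beside 52.8% of all genes. The largest was that of Gas5, at 0.33, and the lowest that of Gas6, at -0.27. Fewer genes of the whole array passed the limit here than in control cells, in both directions.

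Technical precision came from the probes that an array carried as 10 spots. Among those with both signals above 200, the SD of the log2 ratio between spots had a median of 0.02 on both arrays, and its 95th percentile was 0.05 on the control and 0.06 on the depleted array. In control cells 7 of the 8 ratios lay farther from 0 than that percentile, all but that of Gas5, beside 85.1% of the 11626 genes with both signals above 200. In depleted cells 5 of 8 did, and those of Gas2, Gas7 and Pmp22 did not, beside 75.9% of 11373 genes. The members' shares were thus near or below those of all genes. This spread covers error within an array only, not between cultures.

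The difference of the serum ratios, depleted minus control, was above 0 for the brightest probe of all 8 genes. Over all genes, 48.4% were below 0. Of the members' other probes, the GC-rich Gas1 probe (-0.04) and the second Gas7 probe (-0.12) were below 0, and the rest above. That Gas7 probe was not well above background after serum. By the brightest probe, the difference was past 1.5-fold upwards for 3 of 8, Gas1, Pdgfra and Sdpr, beside 5.98% of 19296 genes. It was past 1.5-fold downwards for none, beside 5.09%. The median was 0.53 on the log2 scale for the 8 genes and 0.01 for all genes. Sdpr, with a difference of 1.505-fold, lay just inside the limit, and Pmp22, with 1.45-fold, just outside it. The difference of Sdpr was past the limit in 4 of 7 alternatives, and not with normexp and loess (0.57), without dye normalization (0.45) or with the ratios scaled to one spread (0.46).

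**Figure D2:**
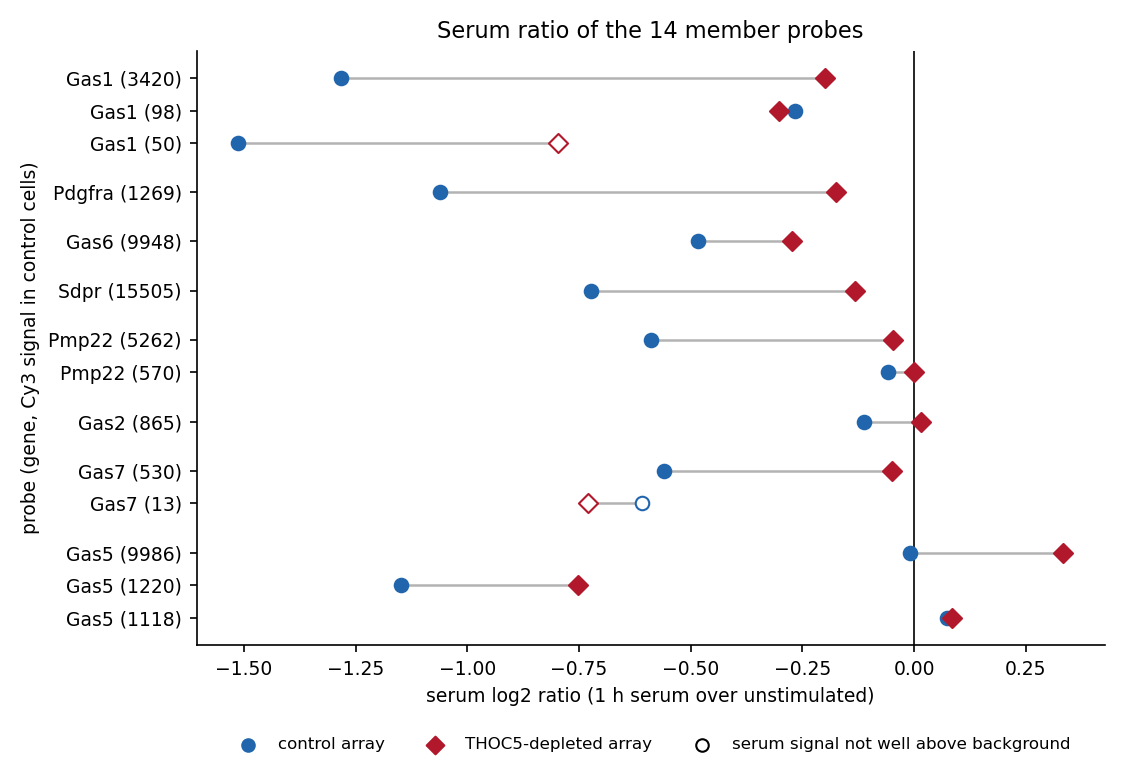
Serum log2 ratio (1 h of serum over unstimulated, horizontal axis) of each of the 14 probes on the control array (blue circles) and the depleted array (red diamonds), with the Cy3 signal of control cells in brackets; open symbols have a serum signal not well above background. For the brightest probes of Gas1, Pdgfra, Sdpr, Pmp22 and Gas7 the blue symbols lie at -0.56 or below and the red symbols between -0.20 and -0.05, while the second Gas5 probe is below -0.7 on both arrays.

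Level was then compared between the arrays, separately in unstimulated and serum-treated cells. In unstimulated cells Gas1, Gas7 and Pdgfra were lower in depleted cells by 1.5-fold or more, 3 of 8 genes beside 7.55% of 19043 genes. None of the 8 was higher by that much, beside 6.87%. The median log2 value was -0.37 for the 8 genes and -0.01 for all genes. In serum-treated cells no member was lower by 1.5-fold, beside 7.24% of 18664 genes. Gas6 was higher by 1.53-fold, 1 of 8 genes beside 8.36%, and the median of the 8 was -0.01. The unstimulated control sample is part of both this comparison and the serum ratio of control cells, so their values for a gene are not independent. Gas6 was under 1.5-fold in 4 of 8 other ways of processing, among them scaling each channel by its 75th percentile and leaving the arrays unscaled.

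**Figure D3:**
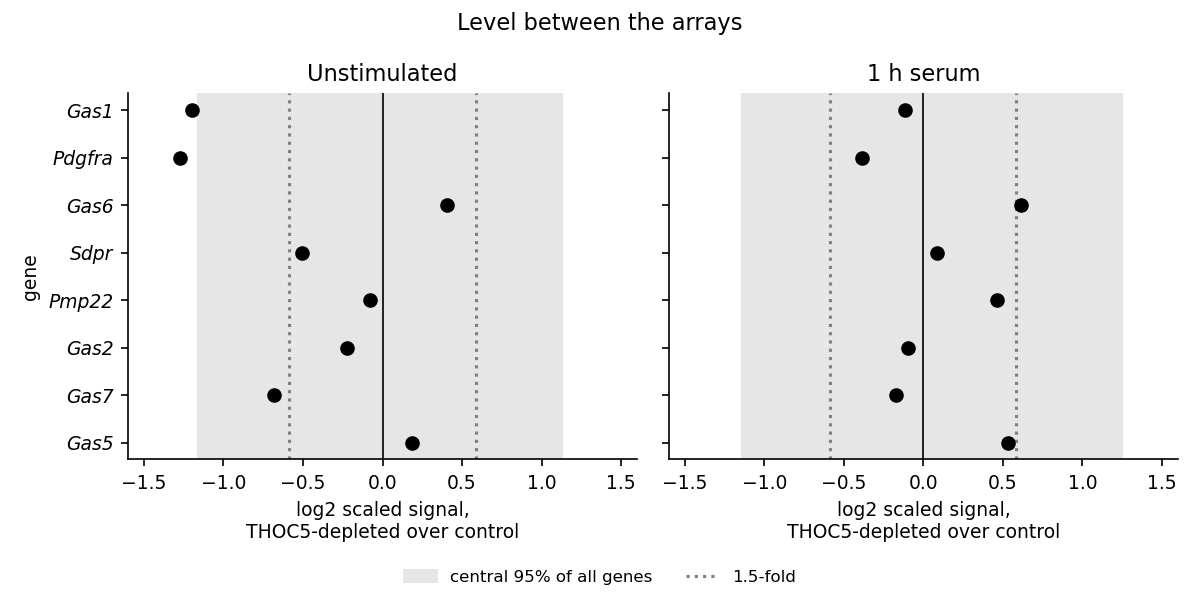
Log2 scaled signal of depleted over control cells (horizontal axis) for the 8 genes in unstimulated cells (left) and after 1 h of serum (right), 1 point per gene and 1 array per condition; the grey band holds the central 95% of all genes compared and dotted lines mark 1.5-fold. Gas1 and Pdgfra lie left of the band at -1.20 and -1.27 in unstimulated cells and inside it, at -0.11 and -0.39, after serum.

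Among the surface receptors, Gas1 had the lowest serum ratio of control cells. GAS1 is a membrane-anchored protein related to the GDNF receptors and a co-receptor through which cells receive Hedgehog ligands, and its forced expression blocks entry into S phase. Its brightest probe had signals of 3420 in unstimulated and 1406 in serum-treated control cells, and of 1209 and 1053 in depleted cells. Only the unstimulated control cells were high. The serum log2 ratio was -1.28 in control cells, or 2.43-fold lower, and -0.20 in depleted cells. After scaling, the level in unstimulated depleted cells was 2.30-fold below that in control cells. Among the 17199 genes well above background in all 4 channels, Gas1 had rank 133 from the lowest serum ratio of control cells and rank 123 from the lowest value between the arrays in unstimulated cells.

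The other Gas1 probes differed from each other. The dimmest probe had signals of 50.2 and 17.6 in control cells and of 21.9 in unstimulated depleted cells, 2.86-fold lower with serum in control cells. Its serum signal in depleted cells was not well above background, which allows only that it was at least 1.74-fold lower with serum there. It was lower in unstimulated depleted than control cells by 2.07-fold. The GC-rich probe had signals of 97.8 and 81.3 in control cells and of 85.9 and 69.7 in depleted cells. Its serum log2 ratio was -0.27 in control and -0.30 in depleted cells, and its scaled level in unstimulated cells differed between the arrays by 1.01-fold. Of the 3 probes, 2 therefore had the strong serum ratio in control cells and the lower unstimulated level, and the GC-rich one had neither.

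Pdgfra had values close to those of Gas1. It encodes the PDGF receptor alpha, a receptor tyrosine kinase of mesenchymal cells. Its probe lies on chromosome 5, at chr5:75593888-75593947 (mm9), and was printed as 10 spots per array. On the control array the spots ran from 1192 to 1330 in Cy3 and from 578 to 635 in Cy5. On the depleted array 9 spots were kept, after 1 was left out as an outlier, and ran from 413 to 469 in Cy3 and from 378 to 404 in Cy5. Every spot of unstimulated control cells was brighter than every spot of the other 3 samples. The serum log2 ratio was -1.06 ± 0.02 (SD, n = 10 spots of 1 array) in control cells and -0.17 ± 0.04 (SD, n = 9 spots) in depleted cells. The ranges over spots, -1.11 to -1.03 and -0.22 to -0.12, did not overlap. Spots of an array share their RNA and are not replicates of a condition. After scaling, Pdgfra was 2.42-fold lower in unstimulated depleted cells and 1.31-fold lower after serum.

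Likeness to a gene was measured as the distance over 3 log2 values, the serum ratio on each array and the level between the arrays in unstimulated cells, among the 17199 genes well above background in all channels. The genes nearest to Gas1 were Rslcan18 at 0.07, Zfp324 at 0.15 and Rnf144a at 0.16. Pdgfra came in 6th place from Gas1, at 0.23, and Gas1 in 5th place from Pdgfra. The nearest to Pdgfra were Serpina3f at 0.13, Rnf144a at 0.15 and Rslcan18 at 0.19. Only 6 genes lay within 0.25 of Gas1 and 6 within 0.25 of Pdgfra, while 2903 lay as close to Gas2.

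Among the members, Gas1 and Pdgfra lay closest to each other, at 0.23, though genes outside the members lay nearer to both. The 250 bases before the RefSeq starts of Gas1 and Pdgfra are shown (GRCm38.p6, a later build than that of the probes). Gas1 is on the minus strand at chr13:60177536-60177785, and Pdgfra on the plus strand at chr5:75152001-75152250. Capitals mark matches to 4 short motifs, searched on both strands: the E-box CACGTG, the forkhead motif GTAAACA, the core promoter motif TATAAA, and the GC-rich motif GGGCGG, to which Sp1 binds. No match overlapped another.
Gas1 upstream: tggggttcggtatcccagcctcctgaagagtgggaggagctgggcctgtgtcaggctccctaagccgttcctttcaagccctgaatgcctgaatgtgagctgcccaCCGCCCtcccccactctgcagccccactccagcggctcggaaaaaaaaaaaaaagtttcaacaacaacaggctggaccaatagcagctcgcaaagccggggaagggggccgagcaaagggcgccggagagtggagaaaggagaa
Pdgfra upstream: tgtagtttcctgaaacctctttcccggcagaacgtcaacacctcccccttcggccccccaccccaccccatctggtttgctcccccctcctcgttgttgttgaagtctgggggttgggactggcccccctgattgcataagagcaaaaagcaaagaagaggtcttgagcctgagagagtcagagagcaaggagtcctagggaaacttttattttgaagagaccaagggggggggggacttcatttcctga
The Gas1 window held 1 GC-rich motif and none of the other 3 motifs, and the Pdgfra window held no match to any of the 4. Of 32851 mouse windows of the same length, 32.7% held the GC-rich motif, 6.02% the E-box, 3.17% the forkhead motif and 12.4% the core promoter motif. Of the 8 genes, 7 were matched in the RefSeq table, and none of their windows held the E-box, the forkhead motif or the core promoter motif. The GC-rich motif was found 4 and 3 times in the windows of Gas5, 4 times in that of Gas6, 3 times in 2 of the 4 windows of Pmp22 and once in 1 of the 2 windows of Gas2, and not in the other windows of these genes or in that of Sdpr. A match is a description of the letters in a window and no evidence of binding.

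The ligands and other receptors of these pathways were read from lists of related genes. Among 6 other PDGF ligands and receptors, 2 were higher after serum by 1.5-fold in control cells and none in depleted cells, beside 6.90% and 3.84% of all genes. Pdgfa, a ligand of the receptor encoded by Pdgfra, had signals of 6484 and 28090 in control cells and of 5772 and 7321 in depleted cells. Its serum ratio was 4.33-fold in control and 1.27-fold in depleted cells. Pdgfb, the other classical ligand, had serum ratios of 4.49-fold and 1.35-fold. Both ligands were thus highest in serum-treated control cells, in which Pdgfra was lower than before serum. Pdgfrb, the second receptor, had a log2 serum ratio of -0.31 in control cells and was 1.34-fold lower in unstimulated depleted cells, while the receptor-like gene Pdgfrl was 1.56-fold lower there.

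Of 13 other genes of Hedgehog reception and response, 11 were detected. None of the 11 passed 1.5-fold with serum in control cells, beside 6.92% of all genes lower and 6.90% higher. Cdon, a co-receptor that acts beside GAS1, had signals of 2043 and 1611 in control cells and of 972 and 1062 in depleted cells. It was lower in unstimulated depleted cells by 1.71-fold, and its serum log2 ratio in control cells was -0.34. Boc, the related co-receptor, differed by 1.06-fold in unstimulated cells. The ligand Ihh was near the detection limit and well above background in 2 channels only.

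Gas6 was the member with the highest relative level in depleted cells. GAS6 is a secreted vitamin K-dependent protein and the ligand of the receptors TYRO3, AXL and MERTK. Its probe, at chr8:13465444-13465503 on the minus strand (mm9), had signals of 9948 and 7112 in control cells and of 10542 and 8722 in depleted cells. In both groups the signal was lower after serum, with log2 ratios of -0.48 and -0.27, and neither reached 1.5-fold. After scaling, Gas6 was higher in depleted cells by 1.32-fold before and 1.53-fold after serum. Its value in unstimulated cells had rank 1599 from the highest of the 17199 genes.

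The receptors of GAS6 had other values. Axl, with signals of 9793 and 9772 in control cells and of 7591 and 7314 in depleted cells, differed by 1.04-fold or less with serum and by 1.07-fold or less between scaled arrays. Tyro3 differed by at most 1.13-fold in any of these comparisons. Mertk was dim, at 85.7 and 89.3 in control cells and 36.5 and 25.01 in depleted cells, and was lower in depleted cells by 2.10-fold before and 3.19-fold after serum. It was the 1 gene past 1.5-fold among 7 others of the list of TAM ligands, receptors and vitamin K enzymes. Of all genes, 7.55% were lower by 1.5-fold in depleted cells before and 7.24% after serum. The genes nearest to Gas6 over the 3 values were 2610318N02Rik, 1700066B19Rik and LOC631151, at 0.04 to 0.07.

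Of the membrane proteins, Sdpr was lower after serum in control cells. Its product, cavin-2, is part of the coat of caveolae, the flask-shaped pits of the plasma membrane. The probe at chr1:51359651-51359710 (mm9, plus strand) had signals of 15505 and 9399 in control cells and of 8741 and 7973 in depleted cells. Unstimulated control cells were the high sample again. The signal after serum was lower by 1.65-fold in control cells and by 1.10-fold in depleted cells. The scaled level was lower by 1.42-fold in unstimulated depleted cells, short of the limit, and differed by 1.06-fold after serum. Its nearest genes were 2610029K11Rik, Gypc and Zfp286, at 0.03 to 0.06, and Gas7 lay at 0.25, in place 129.

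Other genes of the caveola coat did not pass 1.5-fold in any comparison (0 of 8 detected). In each direction of a comparison, 2.08% to 8.36% of all genes passed. Cav1, the main structural protein, had a serum log2 ratio of -0.22 in control and -0.02 in depleted cells, and was 1.39-fold lower in unstimulated depleted cells. Ptrf, which encodes cavin-1, had serum ratios of 1.04-fold and 1.05-fold and was 1.25-fold lower in unstimulated depleted cells. The median log2 value of the 8 genes in unstimulated cells was -0.33, beside -0.01 for all genes.

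Pmp22, a 4-pass membrane protein of myelin that fibroblasts also express, had probes that disagreed on serum. The brighter, at chr11:62972989-62973048 (mm9), had signals of 5263 and 3500 in control cells and of 3964 and 3833 in depleted cells. Its serum log2 ratio was -0.59 in control and -0.05 in depleted cells. The other, at chr11:62971862-62971921, had signals of 570 and 547, and of 490 in both samples of depleted cells. Its ratios were -0.06 and 0.00, so the lower level after serum was seen by the brighter probe alone. In unstimulated cells both probes differed between scaled arrays by 1.06-fold or less. Serum-treated control cells were the low sample for the brighter probe, and the level there was 1.38-fold lower than in serum-treated depleted cells. Among the other genes of the PMP22 and EMP family, 4 were detected and none passed 1.5-fold in any comparison. The share of all genes that passed was 2.08% to 8.36% in each direction of a comparison. The genes nearest to Pmp22 were Fam199x, Krcc1 and A130042E20Rik, at 0.04 to 0.06.

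Of the cytoskeletal members, Gas7 was lower in unstimulated depleted cells and Gas2 was nearly flat. GAS7 is an F-BAR protein that binds actin and curved membranes. Its brighter probe, at chr11:67502434-67502493 (mm9), had signals of 530 and 360 in control cells and of 279 and 270 in depleted cells. The serum log2 ratio was -0.56 in control and -0.05 in depleted cells, and the scaled level in unstimulated depleted cells was 1.605-fold lower. The second probe, at chr11:67496903-67496962, had signals of 12.7 and 14.6 in unstimulated cells and was not well above background after serum on either array. For control cells no fold can be given, and in depleted cells it was at least 1.22-fold lower with serum. With the median of both probes in place of the brighter one, the value of Gas7 between the arrays in unstimulated cells was -0.16 in place of -0.68. The nearest genes were Pex11c, 5730601F06Rik and Klhl8, at 0.04 to 0.06.

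GAS2 links actin filaments to microtubules and is cut by caspases in dying cells. Its probe, at chr7:59249736-59249795 (mm9), had signals of 865 and 801 in control cells and of 608 and 615 in depleted cells. The serum log2 ratio was -0.11 in control and 0.01 in depleted cells, and the scaled level was 1.17-fold lower in unstimulated and 1.07-fold lower in serum-treated depleted cells. The range over all 4 scaled signals was 1.17-fold, the smallest of the 8 genes. The nearest genes, Gm5333, Ttc9c and Hpse, lay at 0.01.

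Gas5 gave values that depended on the probe. The RNA begins with a terminal oligopyrimidine tract, and its spliced form is degraded while it is translated, which is the textbook account of its rise when growth stops. The third probe, the brightest, had signals of 9986 and 9922 in control cells and of 9101 and 11472 in depleted cells. The first had signals of 1118 and 1177, and of 1046 and 1109. Neither differed from its unstimulated level by 1.5-fold. The serum log2 ratios of the first probe were 0.07 and 0.08, and those of the third were -0.01 in control and 0.33 in depleted cells.

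The second Gas5 probe, between them, had signals of 1220 and 551 in control cells and of 833 and 494 in depleted cells. It was the only one of the 3 that was lower by 1.5-fold after serum, by 2.22-fold in control cells and 1.69-fold in depleted cells. It was also the only member probe well above background in all 4 channels that was lower by 1.5-fold with serum on both arrays. Serum was in Cy5 on both, and a difference between the dyes at this probe was not tested. In unstimulated cells the 3 probes differed between scaled arrays by -0.27 on the log2 scale for the second and by 0.19 for each of the others. The genes nearest to the third probe over the 3 values were Sprr1b, Impact and Glyctk, at 0.03 to 0.06.

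**Figure D4:**
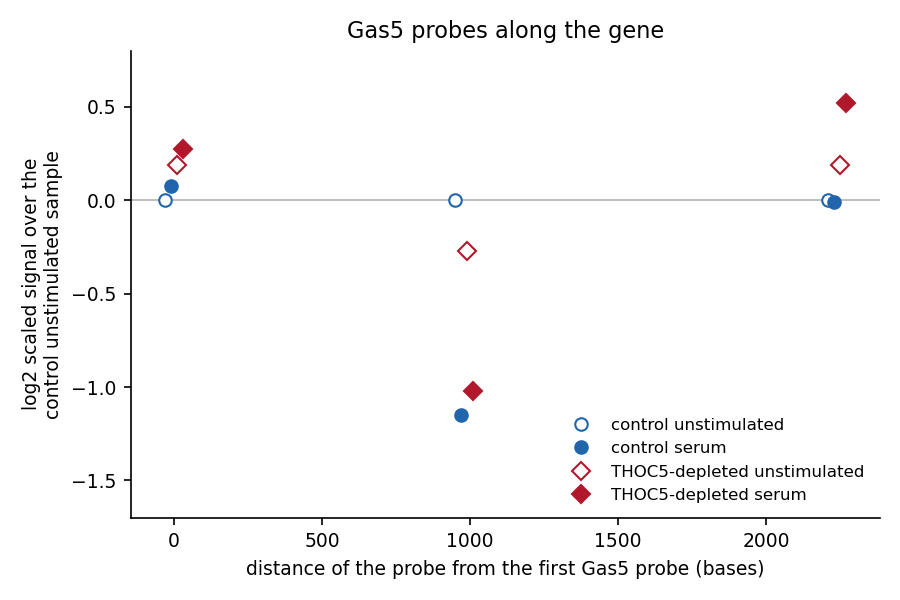
Log2 scaled signal of the 3 Gas5 probes in each sample over that of unstimulated control cells (vertical axis), against the distance of each probe from the first in bases (horizontal axis, with the symbols of a probe set slightly apart); blue circles are control and red diamonds depleted cells, open symbols unstimulated and filled symbols serum-treated, 1 array each. At 981 bases both filled symbols lie below -1, while at 0 and 2239 bases they lie between -0.01 and 0.52.

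Other hosts of small nucleolar RNAs were read from a list of 13 genes, of which 12 were on the array. Among the 8 detected genes other than Gas5, 1 was lower by 1.5-fold with serum on each array, beside 6.92% of all genes in control and 2.08% in depleted cells. This was Snhg5, with signals of 310 and 169 in control cells and of 228 and 111 in depleted cells, or 1.84-fold and 2.05-fold lower. Snhg1 was higher in depleted cells by 1.68-fold before and 1.598-fold after serum, and its serum ratios were 1.15-fold and 1.10-fold. The median serum log2 ratio of the 8 genes was 0.01 in control cells and -0.20 in depleted cells.

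A list of 18 other genes linked to quiescence was read in the same way. In control cells 3 of 15 detected genes were lower after serum by 1.5-fold and 2 higher, beside 6.92% and 6.90% of all genes, with a median log2 ratio of -0.45 beside -0.03. In depleted cells none of 14 was lower and 2 were higher, beside 2.08% and 3.84%, with a median of -0.03 beside -0.01. The difference of the ratios was past 1.5-fold upwards for 6 of 15 genes and downwards for 1, beside 5.98% and 5.09% of all genes, with a median of 0.45 beside 0.01. Lum, 1 of the 6, was not well above background in either channel of the depleted array. Txnip, an inhibitor of thioredoxin and glucose uptake, had signals of 1058 and 303 in control cells and of 840 and 618 in depleted cells. It was lower after serum by 3.49-fold in control and by 1.36-fold in depleted cells. Hbp1, a repressor of cell cycle genes, was lower after serum by 1.78-fold in control cells and differed by 1.03-fold in depleted cells. The last of the 3 was Pik3ip1, an inhibitor of PI 3-kinase at 1.84-fold and 1.06-fold. The 2 that were higher were Btg1, an antiproliferative gene, with log2 ratios of 0.69 in control and 0.70 in depleted cells, and Foxo1, a forkhead factor, with 0.68 and -0.14. Foxo1 was also the gene whose difference was downward, at -0.81. Pik3ip1, Btg1 and Foxo1 were named after their values were seen.

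In unstimulated cells 4 of the 15 genes were lower in depleted cells by 1.5-fold and 1 was higher, beside 7.55% and 6.87% of all genes, with a median log2 value of -0.15 beside -0.01. Unlike Txnip, whose unstimulated level differed by 1.04-fold between the arrays, the matrix gene Dcn was lower in depleted cells by 1.96-fold before and 1.82-fold after serum. Lum, a related matrix gene, was at least 2.91-fold lower in unstimulated depleted cells, where it was not well above background. Klf2, a transcription factor of resting lymphocytes and endothelium, had signals of 5984 and 7320 in control cells and of 4198 and 15183 in depleted cells. It was 3.62-fold higher after serum in depleted cells and 1.22-fold higher in control cells. Genes of this list thus differed among themselves in which sample stood apart, as did the 8 members.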

How the data were processed

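Unstimulated and serum-treated RNA of each condition shared 1 dual-color array. Per the file headers, the authors deposited the output of Agilent Feature Extraction 10.7.3.1, on an array design placed on mm9. The deposited intensities are processed signals, background-subtracted and dye-normalized within each array and not scaled between arrays. The log10 ratio that the authors deposited is Cy5 over Cy3. A deposited table of the series held sizes of log10 ratios without sign. For all 44397 features it equalled, within 0.0001, the ratio after both signals were raised to 1% of the 75th percentile of Cy3. It was used only as an alternative, and 0 columns were left unmapped.

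Outlier spots (239 and 234) were left out, spots of a probe were averaged on the log2 scale, and the probe with the highest mean over 4 channels stood for a gene. Genes well above background in at least 1 channel compared were counted at 1.5-fold. Levels between arrays used Aquantile scaling (limma 3.58.1, R 4.3.3). Python 3.11.15, numpy 2.4.6 and pandas 2.3.3 were used. The calculation was tested on simulated data. A signal not well above background gives a bound, against the higher of the lowest detected signal in that channel and the probe's own. All 8 members were named. From each list of related genes at most 5 past 1.5-fold were named, with 9 known partners of members, Thoc5, Fos and Ier2, and the 3 genes nearest to each member. Pik3ip1, Btg1 and Foxo1 fall outside this rule. Gene symbols are those of the array, and Snhg5 was found through a RefSeq synonym. Members and lists were chosen with earlier results of these data known. Alternatives were normexp with an offset of 50 and loess, no dye normalization, outlier spots kept, the median over probes, limits of 1.3-fold and 2-fold, detection in all channels, a floor of 50, 3 other scalings, ratios scaled to one spread and the series table. Some marker genes of the lists are not reported here.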

Additional observations from a re-analysis of the deposited data

Results flagged for a closer look

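Gas2 and Gas5 had serum log2 ratios of opposite sign on the 2 arrays. For Gas2 the ratio was -0.11 in control and 0.01 in THOC5-depleted cells, a difference of 0.13. For the brightest Gas5 probe it was -0.01 and 0.33, a difference of 0.34. With 1 array per condition neither difference was tested, and 1 ratio of each gene lay within the spread between spots.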

How the results depend on the processing

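With 1 array per condition, no replicate could be left out and no test was run, and no paired analysis was possible because each group has 1 sample. Of 100 counts of members past the limit under alternatives, 85 stayed equal or within 1.5 times the reported count. Without dye normalization the median serum log2 ratio of all genes was 0.82 in control and 0.75 in THOC5-depleted cells. Under that setting 0 members were lower with serum in control cells and 2 were higher, 6 were higher with serum in THOC5-depleted cells, and 0 were higher between arrays after serum. Pmp22 was then at 0.18 and Sdpr at 0.26 in control cells, both below the shift of all genes. At 1.3-fold, 1 member was higher between arrays when unstimulated (12.4% of all genes), 1 lower (13.3%) and 3 higher (14.4%) after serum, and 5 had a higher serum ratio in THOC5-depleted cells (12.7%). At 2-fold, 2 were lower with serum in control cells (2.29% of all genes), 0 higher between arrays after serum (3.57%), and 1 had a higher serum ratio in THOC5-depleted cells (1.78%). The 1 member higher between arrays after serum, Gas6, became 0 with normexp and loess, with 75th percentile scaling and without scaling, where 1 member was lower. Without scaling the median of all genes was -0.26 in unstimulated cells. The values of Gas1 and Pdgfra in unstimulated cells stayed past 1.5-fold in all 8 alternatives run, from -1.50 to -1.05 and from -1.54 to -1.23.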

Other observations

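GAS1 is related in structure to the receptors of the GDNF family, so these were read too. Of 10 listed genes, 7 or 8 were detected. Ret, the signalling receptor of the family, had signals of 67.7 and 359 in control cells and of 102 and 116 in THOC5-depleted cells, a serum ratio of 5.31-fold in control and 1.13-fold in THOC5-depleted cells. The ligand Gdnf had signals of 4405 and 14058 in control cells and of 4395 and 6665 in THOC5-depleted cells, a ratio of 3.19-fold and 1.52-fold. Gfra2, a co-receptor, was lower in unstimulated THOC5-depleted cells by 1.54-fold and the ligand Artn by 1.59-fold, while Gfra1 was well above background in 1 channel only.

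Among 16 relatives of GAS2 and GAS7, 2 of 14 detected genes were higher after serum by 1.5-fold in control cells and none was lower, beside 6.90% and 6.92% of all genes. Fes, an F-BAR tyrosine kinase, had signals of 234 and 826 in control cells and of 188 and 349 in THOC5-depleted cells, or 3.53-fold and 1.86-fold. Fnbp1, an F-BAR adaptor, was higher by 1.65-fold and 1.47-fold. Srgap3 was higher in THOC5-depleted cells by 3.18-fold before and 2.89-fold after serum. Gas2l2 was well above background only in THOC5-depleted cells, at least 1.45-fold higher before serum.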
